A study of Mus musculus with 16 samples.

Results

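Morc1 is a gene of mouse chromosome 16 whose nascent RNA was read along its length, on each parental copy, in 16 libraries. The rows described were chosen by name and position, as the row with the symbol Morc1 and the segments that the authors drew on chromosome 16 at the gene and its upstream neighbours. These are 7 of 24984 rows, with 1 row kept per symbol. The Morc1 row and 4 segments, s1 to s4, follow Morc1, and the other two segments follow its neighbours Dppa4 and Dppa2.

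Newly made RNA was measured by Bru-seq, a method that feeds bromouridine to living cells for a short time and sequences only RNA that has incorporated it. The cells were F121-9 mouse embryonic stem cells and edited cells of that line. Each chromosome pair of this cross has a castaneus (cast) and a 129 member, and reads had been assigned to either, so each row has a 129 and a cast value per library. All 12 groups were grown in 2i plus LIF on gelatin and labelled with 2 mM bromouridine for 30 min. The series asks which DNA elements control in cis when and where DNA is replicated. Unedited F121-9 had 2 libraries, as had abc.del, ab.del and c.del, whose labels name deletions of sites a, b and c. With 1 library each came the deletions a.del and b.del, the pairs ac.del and bc.del, and the edits named 4k.b.c, 100kdel, 245kdel and 680kinv. The labels do not give the place of a site or edit, the copy that was edited, or whether a group is 1 clone. The titles of edited libraries of 1 group end in different letters and numbers, but the labels do not say what these stand for, so a p-value speaks only of the spread among these libraries.

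MORC1 belongs to a family of GHKL ATPases with a CW zinc finger that bind and compact chromatin. It is best known from the male germline, where it is needed to silence transposons and for sperm formation. In nascent RNA most reads of a long gene come from introns, so that the level can be followed from the start of a gene to its end and into the RNA made beyond it.

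On the mm10 build Morc1 spans chr16:48431237-48630905 on the plus strand, 199.669 kb with 27 exons in GENCODE M21. Segment s1 (chr16:48437302-48511046, 73.745 kb) covers exons 2 to 13, and s2 (chr16:48511047-48581359, 70.313 kb) follows it directly and covers exons 14 to 17. Segment s3 (chr16:48620368-48630905, 10.538 kb) holds exons 24 to 27, up to the end of the gene. Segment s4 (chr16:48630906-48655838, 24.933 kb) begins where the gene ends. The segments leave out the first 6.065 kb of Morc1 and the 39.008 kb between s2 and s3, which holds exons 18 to 23. The reads of the Morc1 row that lie in none of its segments are called the remainder, a quantity of 45.073 kb defined after the table had been read. Reads that cross a border can be counted in both segments, and the Morc1 row contains s1, s2 and s3, so these rows are not independent of each other.

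**Figure D1:**
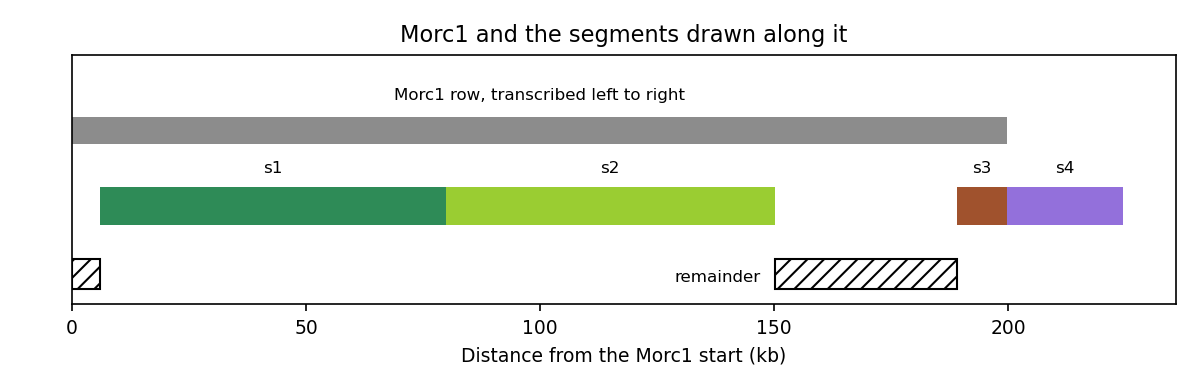
Morc1 and the segments drawn along it, to scale, by distance from the start of the gene in kb (x axis). The grey bar is the Morc1 row, the coloured bars are s1 to s4, and the hatched boxes are the 2 stretches of the gene that no segment covers, 6.065 kb and 39.008 kb long.

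Allele-assigned reads ranged from 10.1 to 36.0 M per library for 129 (median 18.3 M) and from 9.12 to 33.2 M for cast, where M is 1000000 reads. The summed level of 8 embryonic stem cell markers was 1533 to 2143 counts per 1000000 reads (CPM). Markers of primitive endoderm (5 genes), primed epiblast (4) and fibroblasts (4) summed to 0.570 to 2.71, 0.456 to 2.82 and 0 to 1.65 CPM. Among them Sox17, Foxa2, Pou3f1, Col1a1, Col1a2 and Postn had a median of 0 CPM. The highest median of each list was that of Gata4 (0.881 CPM), Otx2 (0.628 CPM) and Thy1 (0.478 CPM). A list of 4 germ cell genes summed to 10.3 to 61.1 CPM, of which Dazl alone ran from 0.516 to 47.2 CPM. Reads of chromosome 16 came from 129 at 51.7% to 52.5% in all 16 libraries, while for chromosome X this share ran from 1.05% to 99.8%, and it was 99.8% and 13.2% in the libraries of c.del.

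In F121-9 both copies of Morc1 were transcribed at like levels. The 129 copy gave 251 and 294 CPM and the cast copy 299 and 295 CPM, so both 129 values lie below both cast values, in replicate 2 by a narrow margin. Of the reads assigned to a copy, 48.1% (95% Wilson interval 47.3% to 49.0%) and 52.7% (51.6% to 53.7%) came from 129. These intervals, like all others here, cover counting error only. Per kb, Morc1 had 1.36 CPM on 129 and 1.49 CPM on cast, above 80.6% and 82.3% of the genes with a mean of at least 0.2 CPM. By CPM without regard to length it ranked 218 of 13985 genes on 129.

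Along the F121-9 gene the 129 copy was read throughout, with 1.30 CPM per kb in s1, 1.45 in s2, 1.22 in the remainder and 1.85 in s3, and it still had 1.11 CPM per kb in s4, past the end of the gene. The cast copy had 1.76 CPM per kb in s1, 1.45 in s2, 1.18 in the remainder, 1.17 in s3 and 0.888 in s4. The 129 share of reads was 42.2% and 48.0% in s1 and 65.4% and 62.4% in s3 of the same libraries, without overlap. Assignment depends on the variants a segment holds, and their number was not analysed here.

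Morc1 on 129 was lower than in both F121-9 libraries in every library whose label names b or c, and it was lowest in abc.del. The abc.del libraries gave 3.70 and 4.19 CPM, the ab.del libraries 17.3 and 34.1 CPM, and the c.del libraries 90.0 and 87.7 CPM. These ranges do not overlap with each other or with F121-9 (251 and 294 CPM). Of the single libraries, bc.del gave 17.8 CPM, b.del 30.1 CPM, 4k.b.c 52.8 CPM, ac.del 115 CPM and a.del 469 CPM. The other edits gave 15.4 CPM in 245kdel, 191 CPM in 680kinv and 285 CPM in 100kdel. In ascending order the groups were abc.del, 245kdel, bc.del, ab.del, b.del, 4k.b.c, c.del, ac.del, 680kinv, F121-9, 100kdel and a.del. The neighbours bc.del, ab.del and b.del cannot be put in order, since bc.del and b.del both lie between the ab.del libraries, and 100kdel lies between the F121-9 libraries.

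The share of Morc1 reads from 129 was 1.45% (95% Wilson interval 1.16% to 1.82%) and 1.37% (1.09% to 1.72%) in abc.del. It was 5.57% and 10.6% in ab.del, 22.5% and 27.1% in c.del, 5.93% in bc.del and 9.79% in b.del. In ac.del it was 31.2%, in 4k.b.c 13.3%, in 245kdel 6.28% and in 680kinv 40.3%. The 129 share in a.del (44.7%) and 100kdel (52.6%) lay nearest to F121-9. The share thus orders the libraries much as the level does, except that a.del, with the highest 129 level, is not above F121-9 in its share.

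**Figure D2:**
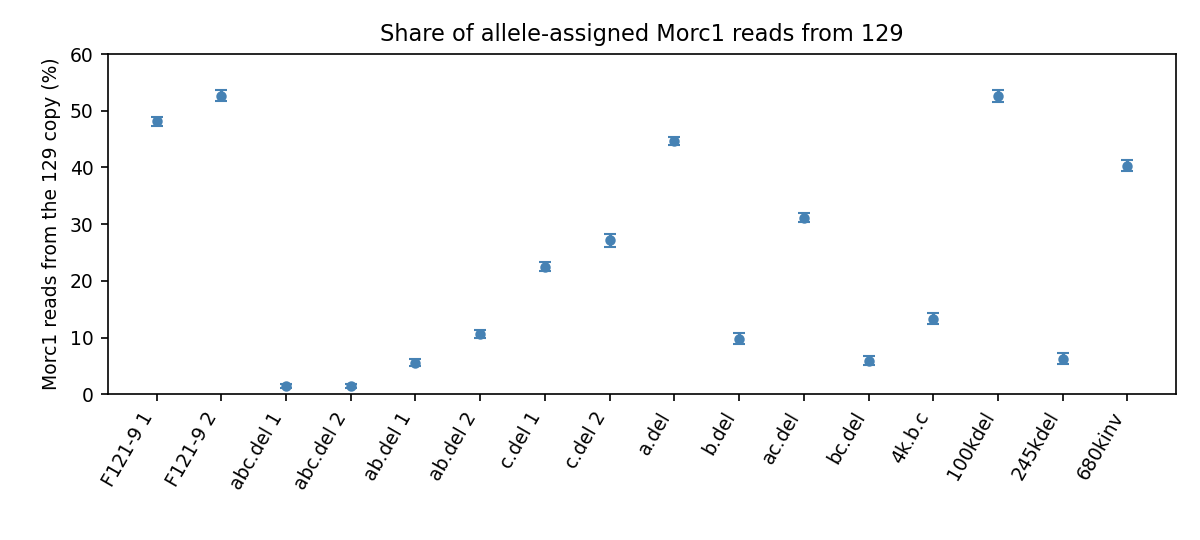
Share of allele-assigned Morc1 reads that came from 129 (y axis, percent) in each of the 16 libraries (x axis), with points for the libraries and bars for 95% Wilson intervals. F121-9 stands at 48.1% and 52.7%, abc.del at 1.45% and 1.37%, and the libraries with b in their label at 13.3% or less.

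In abc.del, 4 of the 5 Morc1 rows passed limma's test on 129 values against F121-9, all lower, where 0.286% of the 13992 features tested passed lower and 0.314% passed in either direction. All of these rows had a mean of at least 0.2 CPM on 129, as the filter for fits of 129 values asked. They also had it on cast, which the difference of 129 and cast requires as well. On the scale of log2(CPM + 0.1) the Morc1 row fell by 6.07 (SE 0.31, adjusted p = 0.000107), and s1, which lies nearest to the start of the gene, fell by 7.96 (SE 0.43, adjusted p = 0.000107). Segment s2 fell by 5.17 (SE 0.27, adjusted p = 0.000107). At the end of the gene s3 differed by -4.68 (SE 0.81, adjusted p = 0.0669) and did not pass, while s4 fell by 6.73 (SE 0.87, adjusted p = 0.0200). Segment s3 did pass in 3 of 11 other settings, and it ranged from -5.63 to -3.73 in fits without 1 library. The call on s4 was lost in 3 of 11 other settings and in 3 of 8 fits without 1 library, and leaving out F121-9 replicate 2 took Morc1 and s2 to an adjusted p of 0.0504 and s1 to 0.0530. The within-library difference of 129 and cast gave the same size for Morc1 (-6.04, adjusted p = 0.000577), where 0.0601% of 13317 features passed lower and 0.0676% in either direction, and kept the call in all 8 such fits. On that measure s1 and s2 passed as well, and s3 (-4.56, adjusted p = 0.395) and s4 (-6.49, adjusted p = 0.229) did not, so that 3 of the 5 rows passed. The 8 features that passed lower on it include these rows themselves, the remainder and the segments at Dppa4 and Dppa2. They also include the Dppa4 gene, whose reads equal those of its segment. The share of features passing is thus largely made up of these rows and is no independent background.

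In ab.del, 3 of the 5 rows passed on 129, again all lower, against 0.229% of features lower and 0.243% in either direction. Morc1 fell by 3.48 (SE 0.31, adjusted p = 0.00211), s1 fell by 5.22 (SE 0.43, adjusted p = 0.00205) and s2 fell by 3.53 (SE 0.27, adjusted p = 0.00205). Segments s3 (-1.57, SE 0.81, adjusted p = 0.628) and s4 (-2.80, SE 0.87, adjusted p = 0.295) did not pass, though s4 did in 2 of 11 other settings. All 3 calls were lost without F121-9 replicate 1 (adjusted p = 0.165 for Morc1 and 0.156 for s1 and s2) and without F121-9 replicate 2 (0.197, 0.175 and 0.173). That of Morc1 was also lost with no filter on low values (0.0528). As a difference from cast, Morc1 fell by 3.52 (adjusted p = 0.0101), where 0.0526% of features passed lower, and this call was lost without either library of F121-9 (0.211 and 0.311), without either library of abc.del (0.0875 and 0.0878) and with no filter (0.177). The 7 features that passed lower on this difference in ab.del include Morc1, s1, s2, the segments at Dppa4 and Dppa2 and the Dppa4 gene, so that share is no independent background either. The direct comparison of abc.del with ab.del gave -2.60 for 129 Morc1 (SE 0.31, adjusted p = 0.123), which did not pass. There limma called 0 features (0%), 149 had an unadjusted p under 0.05, edgeR called 0 and DESeq2 called 10, Morc1 among them (-2.64, adjusted p = 1.27e-10).

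In c.del, both libraries lay below both F121-9 libraries in Morc1 and in s1 to s4 on 129, but 0 of 5 rows passed. limma called 0 of 13992 features (0%) there, with 1068 at an unadjusted p under 0.05, edgeR called 0 and DESeq2 called 129. Morc1 differed by -1.61 (SE 0.31, adjusted p = 0.238 by limma), and by -1.73 in DESeq2, where it passed (adjusted p = 5.98e-05). The segment values were -1.35 in s1, -1.24 in s2, -1.68 in s3 and -1.85 in s4, with adjusted p from 0.295 to 0.667 by limma. In 1 of 11 other settings each, s1 and s2 passed.

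The cast copy of Morc1 did not pass in any of these comparisons. Its differences from F121-9 were -0.03 in abc.del, 0.05 in ab.del and -0.03 in c.del, each with an SE of 0.20, and adjusted p was from 0.968 to 0.986. On cast values limma and edgeR called 0 of 13877 features (0%) in each comparison, with 779 to 1079 at an unadjusted p under 0.05 against F121-9, and DESeq2 called 50 to 149. By library, cast Morc1 had 299 and 295 CPM in F121-9, 265 and 319 CPM in abc.del, 311 and 303 CPM in ab.del, and 337 and 250 CPM in c.del. The values of abc.del and of c.del lie on both sides of F121-9, and those of ab.del just above it. Except for a.del, cast Morc1 kept between 250 and 358 CPM in all libraries, a 1.43-fold range, while 129 Morc1 ran over a 79.5-fold range in the same 15 libraries. In bulk RNA, fewer cells with an active copy and less RNA per cell cannot be told apart.

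The difference of 129 Morc1 from F121-9 was uneven along the gene. F121-9 and the libraries whose labels combine a, b and c with del, 12 in all, are called the lettered series. In its 6 libraries with b in the label, s1 held only 0.183% to 3.12% of its F121-9 level, s2 held 2.52% to 15.6%, s3 held 1.53% to 70.6% and s4, beyond the gene, held 0% to 23.5%. In all 6 of them s2 and s3 kept a larger percentage than s1, and s4 did so in 5. In only 4 of them did s3 keep more than s2, and the remainder, most of it between s2 and s3, held 0% to 13.5%.

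Segment s1 on 129 had 0.444 and 0.172 CPM in abc.del (9 and 3 reads), 2.08 and 2.93 CPM in ab.del, and 1.28 and 1.26 CPM in b.del and bc.del (14 and 15 reads). In the lettered libraries without b it had 87.0 and 105 CPM in F121-9, 39.4 and 35.7 CPM in c.del, and 43.9 and 159 CPM in ac.del and a.del. Within the lettered series the libraries with b (at most 2.93 CPM) and without b (at least 35.7 CPM) were thus far apart. Outside it, 4k.b.c, whose label names b, lay between them with 9.09 CPM (98 reads). The 245kdel library, with no b in its label, had 0.0986 CPM (1 read). In s2 the abc.del libraries had 2.96 and 2.53 CPM, the ab.del libraries 7.37 and 10.2 CPM, b.del 8.47 CPM and bc.del 15.7 CPM, each above its own s1. Those of the series without b had 95.6 and 108 CPM in F121-9, 44.5 and 41.3 CPM in c.del, and 57.8 and 173 CPM in ac.del and a.del, close to their s1. In s3 the libraries with b spread widely, with 0.296 and 1.38 CPM in abc.del, 0.839 CPM in bc.del, 3.06 and 13.7 CPM in ab.del and 13.4 CPM in b.del. The last of these approach the 18.7 and 20.4 CPM of F121-9, and s3 of libraries with and without b overlaps, since c.del had 4.49 and 8.12 CPM and ac.del 10.5 CPM. Beyond the gene, s4 had 0 reads and 0.574 CPM in abc.del, 2.23 and 6.64 CPM in ab.del, and 6.01 and 2.10 CPM in b.del and bc.del, all below the 6.73 to 42.9 CPM of the lettered libraries without b. Outside the series s4 had 6.31 CPM in 245kdel and 3.65 CPM in 680kinv, which lie among the libraries with b.

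**Figure D3:**
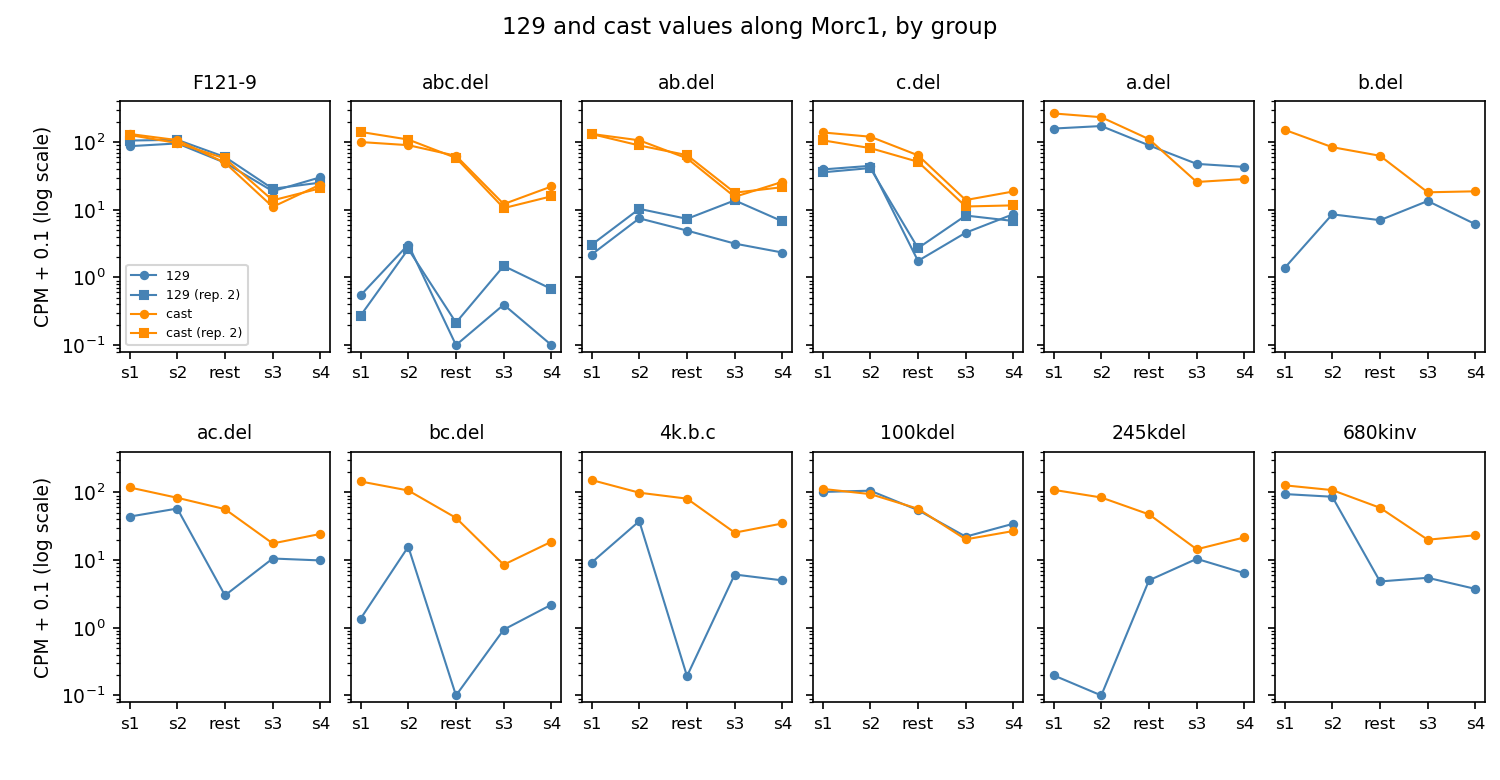
Values along Morc1 in CPM + 0.1 (y axis, log scale) for s1, s2, the remainder (rest), s3 and s4 (x axis), in 1 panel per group, with 129 in blue and cast in orange and squares for replicate 2. The cast lines are similar in shape in all panels, with the highest s1 in a.del (265 CPM). The 129 lines start low at s1 in the lettered deletions with b (at most 2.93 CPM), in 4k.b.c (9.09 CPM) and in 245kdel (0.0986 CPM). They dip at the remainder in the libraries with c (at most 2.92 CPM).

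The log2 ratio of s2 to s1 on 129 was 2.49 and 3.27 in abc.del, 1.78 and 1.77 in ab.del, 2.64 in b.del and 3.54 in bc.del. Without b it was 0.14 and 0.04 in F121-9, 0.18 and 0.21 in c.del, 0.12 in a.del and 0.40 in ac.del. The groups do not overlap, and the means were 2.58 ± 0.74 (SD, n = 6) with b and 0.18 ± 0.12 (n = 6) without, a difference of 2.40 (two-sided exact permutation p = 0.00216, the smallest that 6 against 6 allows, adjusted p = 0.00649 over 6 tests). For s3 against s1 the means were 1.24 ± 1.62 with b and -2.27 ± 0.46 without, again with no overlap, a difference of 3.51 (exact permutation p = 0.00216, adjusted p = 0.00649). For s4 against s1 they were 0.49 ± 1.59 and -2.03 ± 0.30, a difference of 2.53 (exact permutation p = 0.0152, adjusted p = 0.0303), and the groups overlap through abc.del replicate 1, whose s4 has 0 reads. That last call was lost with a pseudocount of 0.01 (difference 2.11, adjusted p = 0.225), and also when adjusted over the wider family of 30 ratio tests added later (adjusted p = 0.0909), in which s2 and s3 still passed (adjusted p = 0.0216 for both).

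The same ratios on cast did not separate the libraries. They differed by -0.12 for s2, -0.07 for s3 and 0.07 for s4, with exact permutation p of 0.325, 0.760 and 0.755. Among the libraries outside the lettered series, 4k.b.c, whose label also names b, had 129 ratios of 2.04 for s2 and -0.58 for s3, within and just below the range of the 6 libraries with b. The 100kdel library had 0.06 and -2.19, within the range of the lettered libraries without b. The other two lay outside both ranges in s2 and s3, with -0.99 and 5.72 in 245kdel and -0.13 and -4.11 in 680kinv, so that 245kdel, with no b in its label, had a higher s3 ratio than every library with b. The libraries form 2 runs of sample numbers of unstated meaning, and both F121-9 and both abc.del libraries are in the first. Within the first run (4 with b against 3) the differences on 129 were 2.65 for s2, 3.06 for s3 and 1.84 for s4, and within the second (2 against 3) they were 1.96, 4.71 and 3.79. Designs of this size allow no p below 0.0286 and 0.1.

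**Figure D4:**
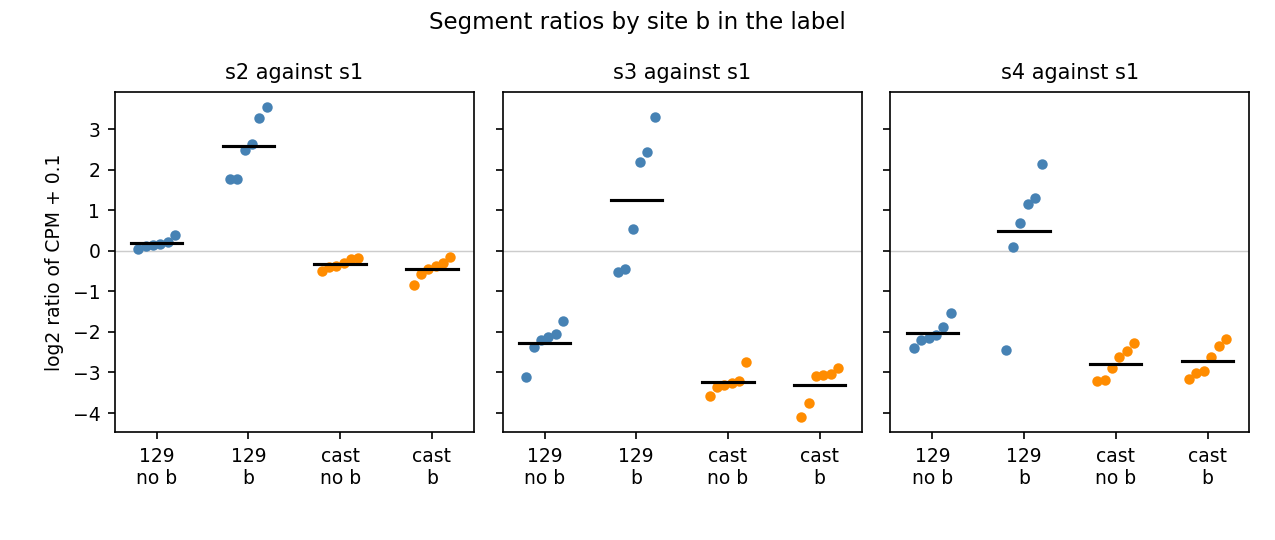
Log2 ratio of CPM + 0.1 of s2, s3 and s4 to s1 (y axis) in the 12 libraries of the lettered series, by copy and by whether the label names b (x axis), with points for libraries and lines for means. On 129 the s2 ratios with b (1.77 to 3.54) all lie above those without (0.04 to 0.40), while the cast ratios overlap.

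The additive fit of sites a, b and c over the 12 lettered libraries, on the difference of 129 and cast, was run across all features. For site b limma called 4 of 13317 features (0.03%), and these were the Morc1 row, s1, s2 and the remainder. Their terms were -3.44 for Morc1 (SE 0.35, adjusted p = 0.0104), -5.80 for s1 (SE 0.40, adjusted p = 0.000806), -3.12 for s2 (SE 0.39, adjusted p = 0.0414) and -3.67 for the remainder (SE 0.30, adjusted p = 0.00195). Segments s3 (-2.16) and s4 (-3.03) did not pass (adjusted p = 0.613 for both). Leaving out b.del ended the Morc1 call (adjusted p = 0.105), the s2 call was lost in 11 of 12 fits without 1 library and with the run of sample numbers as a covariate (adjusted p = 0.133), and the s1 call was kept in all 12. The call on the remainder was lost with a pseudocount of 0.01 (-5.00, adjusted p = 0.341) and of 1 (-2.27, adjusted p = 0.0532). On 129 values alone the same number of features passed (0.0286%), with -3.65 for Morc1 and -5.92 for s1. On cast values none did (0%), with 789 features at an unadjusted p under 0.05 and a Morc1 term of -0.20 (SE 0.19).

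Within Morc1, the remainder was where the libraries with c in their label differed most. On 129 it had 0 and 2 reads in abc.del, 0 reads in bc.del and 1 read in 4k.b.c, while c.del had 1.66 and 2.61 CPM and ac.del 2.92 CPM. The libraries without c had 49.5 and 60.2 CPM in F121-9, 4.83 and 7.25 CPM in ab.del, 89.5 CPM in a.del, 6.92 CPM in b.del, 54.8 CPM in 100kdel, 4.93 CPM in 245kdel and 4.74 CPM in 680kinv. In CPM the 7 libraries with c thus all lay below the other 9, at no more than 2.92 CPM against at least 4.74 CPM. As a share of the 129 reads of Morc1, though, the remainder of 680kinv (2.48%) lay among the lettered libraries with c (0% to 2.98%). That of 100kdel (19.2%) and that of 245kdel (32.1%) did not. Cast values overlapped, with 42.0 to 81.0 CPM with c and 47.4 to 111 CPM without.

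In c.del the mean 129 level of the remainder was 3.89% of F121-9, against 39.0% in s1, 42.1% in s2 and 32.3% in s3. Reads were thus found at s3, while few were found in the remainder, which pools the start of the gene with the stretch between s2 and s3. Whether the reads at s3 come from RNA begun upstream was not tested. In bc.del the remainder had 0 reads on 129, which a floor of 3 reads places 213-fold below F121-9. That floor is not a 95% limit. In the same library s2 held 15.6% of its F121-9 level. In 4k.b.c the 1 read stood 578-fold below F121-9 (95% counting interval 104-fold to 22842-fold) beside 37.4% in s2.

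For site c the additive fit called 1 of 13317 features (0.00751%), the added row of the remainder, with a term of -4.95 (SE 0.28, adjusted p = 0.000137), and on 129 values alone it was again the only call (0.00715%), at -5.17 (adjusted p = 3.4e-05). With a pseudocount of 0.01 it was -6.20 and did not pass (adjusted p = 0.178). The Morc1 row had a term of -1.62 (SE 0.33, adjusted p = 0.871). In c.del against F121-9 alone the remainder differed by -4.65 on 129 (SE 0.57, adjusted p = 0.0853), which did not pass by limma or edgeR and passed by DESeq2 (-4.84, adjusted p = 3.2e-34). In the lettered series the log2 ratio of the remainder to s2 on 129 was -4.79 ± 1.32 (SD, n = 6) with c and -0.69 ± 0.27 (n = 6) without, with no overlap, a difference of -4.10 (two-sided exact permutation p = 0.00216, adjusted p = 0.0216 over 30 tests). Set against s1 in place of s2, the remainder differed by -3.50 between the same groups (exact permutation p = 0.00866, adjusted p = 0.0649), which overlapped and did not pass. On cast the ratio to s2 differed by -0.03 (exact permutation p = 0.861). The remainder and its ratios were added after the values were seen, so these p-values are not those of planned tests. For site a limma called 0 features (0%), with 900 at an unadjusted p under 0.05, and the term for Morc1 was -0.55 (SE 0.35). Without a.del it called 2. The count table does not say whether bases of the remainder are missing from an edited copy, which was not tested.

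**Figure D5:**
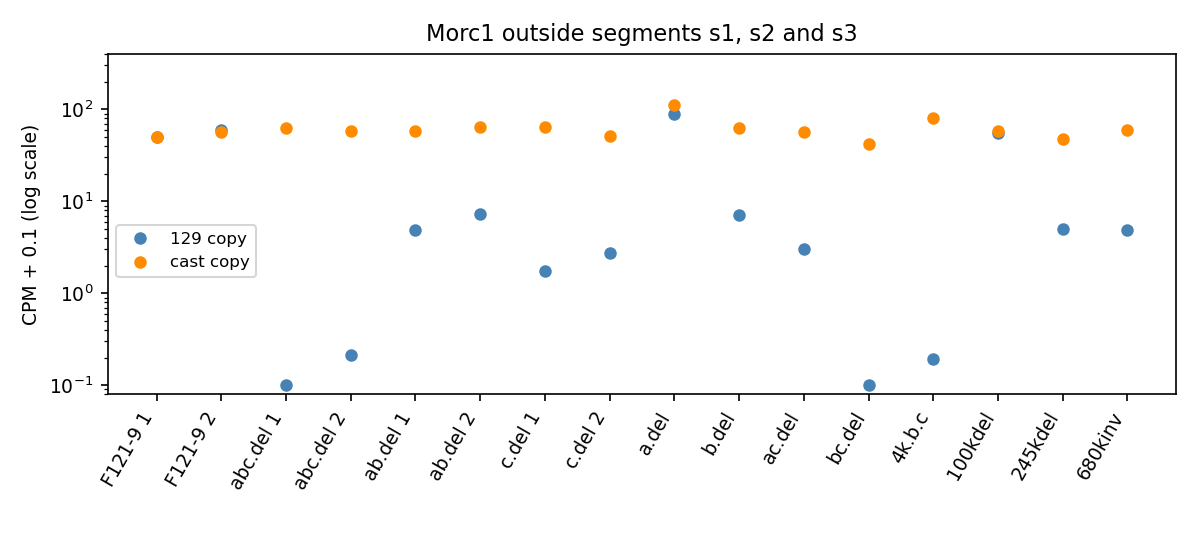
Level of the part of Morc1 outside s1, s2 and s3, in CPM + 0.1 (y axis, log scale), in each of the 16 libraries (x axis), for 129 (blue) and cast (orange). The 7 libraries with c in the label have the lowest 129 values, at most 2.92 CPM, and cast stays between 42.0 and 111 CPM in all.

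The larger edits each gave a different profile along 129 Morc1, with 1 library each and no test. In 245kdel, s1 had 1 read and s2 had 0 reads, which the 95% counting interval places at least 276-fold below F121-9 in s2. In the same library s3 kept 53.5% (95% counting interval 43.2% to 65.6%) and s4 kept 22.4% (17.1% to 28.8%) of the F121-9 level. Of its 129 Morc1 reads, 67.3% lay in s3. In 680kinv the level was close to F121-9 at the start of the gene and lower further on, with 101% (95.2% to 106%) in s1, 86.0% (81.3% to 90.9%) in s2, 8.84% (7.13% to 10.8%) in the remainder, 27.8% (22.6% to 34.0%) in s3 and 13.0% (10.1% to 16.4%) in s4. In 100kdel all parts of the gene lay near F121-9, with 108% in s1, 106% in s2, 102% in the remainder and 114% in s3, and s4 had 34.5 CPM beside 30.2 and 25.1 CPM.

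In the Morc1 row, a.del had 635 CPM on cast, above the 250 to 358 CPM of all other libraries. Its 129 copy had 175% (95% counting interval 170% to 180%) and its cast copy 213% (208% to 219%) of the F121-9 level. The excess was seen in each segment on 129, from 152% in s4 to 246% in s3. On cast it was 204% in s1, 227% in s2, 214% in s3 and 126% in s4. The median gene of chromosome 16 in that library stood only 0.16 (129) and 0.10 (cast) above F121-9 on the log2 scale. Single segments of cast Morc1 were high in 4k.b.c too, with 211% (181% to 247%) in s3, 155% in s4 and 154% in the remainder, beside 117% in s1 and 96.3% in s2. In ac.del, which also names a, Morc1 was at 43.0% on 129 and 92.8% on cast.

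On cast, s1 took 37.8% to 48.0% of the Morc1 reads of a library, s2 took 26.5% to 36.8%, the remainder 13.9% to 23.6% and s3 took 2.79% to 7.08%, over all 16 libraries. On 129 the same shares ran from 0.641% to 49.5%, 0% to 88.2%, 0% to 32.1% and 2.82% to 67.3%. In bc.del, 88.2% of the 129 reads of the gene lay in s2 alone. The split of reads along the gene was thus far wider on 129 than on cast, and the 129 shares in abc.del rest on 75 and 73 reads in the gene.

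The segments at Dppa4 and Dppa2, which encode SAP domain proteins of pluripotent cells, did not move with Morc1 in every group. On 129 the Dppa4 segment, whose reads equal those of the gene in 32 of 32 columns, had 11.9 CPM in bc.del, 23.8 CPM in b.del and 15.7 CPM in 245kdel, against 14.8 and 13.5 CPM in F121-9. It had 0 to 1 read in abc.del, ab.del and 100kdel. The Dppa2 segment, which holds 87.0% of the 129 reads of Dppa2 in F121-9, had 20.1 and 17.6 CPM there on 129, 0 to 2 reads in abc.del, ab.del and 100kdel, 0.805 CPM in ac.del and 16.1 to 45.4 CPM in the other libraries. On cast it had 0 reads in a.del and 4 reads in 4k.b.c, against 7.56 to 21.9 CPM in the other 14 libraries.

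By Pearson's r on 129 values over the 16 libraries, among 10621 genes with a mean of at least 1 CPM on each copy, the genes most like Morc1 were Fam92a (0.772), Faim (0.723), Tmtc1 (0.717), Fyttd1 (0.714) and Acer2 (0.709). On the difference of 129 and cast they were Rnf168 (0.715), Ttc28 (0.715), Ralgapa2 (0.695), Bmp2k (0.685) and Grhl2 (0.680). Dppa4 stood at 0.492 and 0.476 and Dppa2 at 0.365 and 0.318. Of these genes, Fyttd1, Rnf168, Dppa2 and Dppa4 are on chromosome 16. The values come from the same libraries and depths as Morc1, are the highest of many, and describe likeness only. Over the 12 lettered libraries Fam92a stood at 0.845 and other genes were higher, led by Trio (0.936).

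Of the other genes of the family, Morc2a, Morc3 and Morc4 were tested, Morc2b had a median of 0 CPM and was not, and 0 of 3 passed in any comparison on 129, cast or their difference. With 0% to 0.314% of all features passing, this count says nothing particular about the family. In F121-9 Morc3 had 5.63 and Morc2a 1.62 CPM per kb on 129, beside 1.36 for Morc1. Morc4 lies on chromosome X and differed by -4.96 in abc.del on 129 (adjusted p = 0.179). The 129 share of chromosome X reads was 49.7% and 52.6% in F121-9 and 1.05% and 1.06% in abc.del, and its part in that value was not tested. Of 6 genes of the HUSH silencing complex and its partners and 11 of germline transposon silencing in the table, 0 passed in either direction in the comparisons of groups, where at most 0.314% of all features did, so that these counts are at the background. In abc.del against F121-9 on 129 their median differences were 0.15 and -0.13, beside 0.07 for all features, and in ab.del 0.15 and -0.38, beside 0.11.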

How the data were processed

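The deposited table, per the file headers, holds reads clipped, kept at a mapping quality of at least 10 and split by homozygous SNPs into a reference (129) and a variant (cast) column per library, 32 columns in all. Bowtie2, bedtools and the mm10 build are named per the submitters' processing notes, with versions not given in the sources used here. The unit deposited is CPM, since the 42497 lines of a column add up to 1000000. The submitters describe it as RPKM, but no division by length was found. Dividing by the smallest value above 0 gave whole reads within 0.01 for 100% of values. These reads were used for intervals, edgeR and DESeq2.

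The longest line per symbol was kept (24978 symbols and 6 segments, with the remainder of Morc1 as an added row). log2(CPM + 0.1) was fitted with limma 3.58.1 (trended eBayes) in R 4.3.3 over the 4 groups with 2 libraries, with two-sided p adjusted by Benjamini-Hochberg over all features with a mean of at least 0.2 CPM and a threshold of 0.05, and with additive site terms over the 12 lettered libraries. Ratios were tested by two-sided exact permutation over libraries, with libraries of the same group taken as separate units. Single libraries were given exact 95% binomial intervals of the read ratio to F121-9, and Wilson intervals for shares, with a floor of 3 reads, which is 0.0833 to 0.296 CPM on 129. edgeR 4.0.16 (quasi-likelihood) and DESeq2 1.42.0 were alternatives. Others were the pseudocount, filter, scaling, samples fitted, run of sample numbers and leaving out each library. The remainder, its ratios, the 30-test family and site terms on each copy alone were added after the values were seen. Named genes were Morc1 and its segments, Dppa2 and Dppa4, the 5 most alike by Pearson's r on each measure, and the MORC family. The members and lists were chosen with earlier results of these data known. Scripts were tested on simulated data. No 2 columns held identical values. The other steps used pandas 2.3.3, scipy 1.17.1, numpy 2.4.6 and matplotlib 3.10.9 in Python 3.11.15.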

Additional observations from a re-analysis of the deposited data

How the results depend on the processing

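No paired analysis was possible because only the F121-9 titles carry replicate numbers, so no numbers are shared between groups. Under other settings 129 Morc1 in ab.del gave -3.48 with no filter on low values and no longer passed. By DESeq2 it passed in c.del (-1.73), and abc.del against ab.del passed too (-2.64). As a difference from cast, ab.del gave -3.52 with no filter and no longer passed. c.del passed with autosomal features (-1.58) and by DESeq2 (-1.59), and abc.del against ab.del with only the 2 groups (-2.52), autosomal features (-2.53) and DESeq2 (-2.57). The cast difference in ab.del changed sign with median centring (-0.076) and by DESeq2 (-0.034). Without 1 library at a time, 129 Morc1 ranged from -6.19 to -5.96 in abc.del, -3.96 to -2.99 in ab.del, -1.73 to -1.50 in c.del and -3.08 to -2.11 for abc.del against ab.del, which passed without ab.del replicate 1. The difference from cast ranged from -6.17 to -5.92, -4.03 to -3.02, -1.77 to -1.38 and -3.02 to -2.01. It passed in c.del without either c.del library, and for abc.del against ab.del without ab.del replicate 1 or either c.del library. Fits that leave a group with 1 library take its spread from the other groups, and those without a c.del library called 366 and 864 features in c.del. Cast Morc1 ranged from -0.17 to 0.10 in abc.del, 0.03 to 0.07 in ab.del, -0.25 to 0.18 in c.del and -0.21 to 0.057 for abc.del against ab.del. The sign turned without abc.del replicate 1 (0.10 and 0.057) and without c.del replicate 2 (0.18). The site b term of Morc1 ranged from -3.82 to -3.09, with a run covariate -3.29, and that of site c from -1.87 to -1.44. The 129 ratios to s1 by site b ranged from 2.21 to 2.56 for s2, 3.10 to 3.87 for s3 and 2.20 to 3.12 for s4. Within the runs they were 2.65, 3.06 and 1.84 in the first and 1.96, 4.71 and 3.79 in the second, in designs too small to pass, and s4 gave 2.11 with a pseudocount of 0.01. The cast ratio of s3 turned sign in 3 fits without 1 library (0.012, 0.026 and 0.081, in a range from -0.16) and within the second run (0.15), and that of s4 in 4 (-0.038, -0.0041, -0.015 and -0.019, in a range up to 0.17). Over the lettered libraries r was 0.845 for Fam92a and 0.750 for Rnf168. Counts of calls moved most: 44 features on 129 in abc.del became 17 to 686 in other settings and 0 to 601 without 1 library, 34 in ab.del became 9 to 433 and 0 to 478, and 0 in c.del became up to 129 and 365. On cast the 0 calls became up to 149, 50, 96 and 9 in the 4 comparisons and up to 65, 15, 602 and 0 without 1 library. On the difference, 9, 7, 0 and 0 became up to 537, 465, 16 and 4, and up to 509, 461, 864 and 6. The 4 calls for site b became 2 to 3 in other settings and 2 to 4 without 1 library, the 1 for site c became 0 to 1, and the 0 for site a became 2 without a.del. The cause was not tested. Depth limits s1, s3 and s4 in abc.del and s3 in bc.del, which hold 10 reads or fewer in at least 1 library.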
